A study of Mus musculus with 6 samples.

Results

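Accessible intervals wider than the narrowest in the list and lying deep inside protein-coding genes numbered 19673 of 120905 intervals in all. They came from an ATAC-seq list, in which a transposase cuts and tags open chromatin, made from mouse liver. An interval was counted when it was wider than 201 bp, the narrowest width in the list, and its centre lay inside a protein-coding gene span and over 10 kb from every protein-coding gene end. The intervals were thus chosen by their width and position in the list, and host genes were ranked on their density. These values are given below as descriptions with no test. The part of the gene spans that meets the distance condition, called the deep interior here, covered 736 Mb in 9886 genes.

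The libraries were 3 from 129S1/SvImJ and 3 from C57BL/6J mice, all male, wild type and fed a high-fat diet, with liver as the labelled tissue. Ages are not given, nor is it stated that each replicate was its own animal. Esrrg, an orphan nuclear receptor, is entered as an antibody for each of the 6 libraries, and the labels do not explain its role in ATAC-seq. The protocol calls the tagged material by an abbreviation, LMs, that it does not spell out. The authors' list combines all libraries and marks neither strain nor library, so the strains were not compared, and it holds positions without read counts, so the depth behind an interval is unknown.

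Open chromatin far inside a gene usually lies in introns. Some of it belongs to enhancers, stretches where transcription factors bind and act on a promoter at a distance, and some to alternative promoters, from which a shorter or different transcript of the same gene starts. In hepatocytes, the main cell type of liver, factors such as HNF4A, the FOXA proteins and the glucocorticoid receptor are known to bind many such sites.

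The place where a sequence can be set directly beside these intervals is the alternative promoter. RefSeq start windows, from 250 bases before to 50 bases after a transcription start, were available for the build GRCm38.p6, which is mm10. The 8 windows printed here lie deep inside a gene and overlap a wider interval, and were chosen after their values were seen, to show both CpG-poor and CpG-rich starts. Capitals mark the bases that the interval covers, and each window reads 5′ to 3′ on the strand of its gene.

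Of these windows, 5 held few CpG dinucleotides. Hnf4a, a nuclear receptor that maintains hepatocyte identity, has its window at chr2:163546905-163547204 on the + strand, with 4 CpG. For Cd36, a fatty acid transporter, it is chr5:17835847-17836146 on the - strand, with 3 CpG. For Prlr, the prolactin receptor, it is chr15:10223656-10223955 on the + strand, with 2 CpG. For Zbtb20, a zinc finger repressor of fetal liver genes, it is chr16:43247034-43247333 on the + strand, with 3 CpG. For Rbm47, an RNA-binding protein, it is chr5:66098130-66098429 on the - strand, with 3 CpG.
Hnf4a: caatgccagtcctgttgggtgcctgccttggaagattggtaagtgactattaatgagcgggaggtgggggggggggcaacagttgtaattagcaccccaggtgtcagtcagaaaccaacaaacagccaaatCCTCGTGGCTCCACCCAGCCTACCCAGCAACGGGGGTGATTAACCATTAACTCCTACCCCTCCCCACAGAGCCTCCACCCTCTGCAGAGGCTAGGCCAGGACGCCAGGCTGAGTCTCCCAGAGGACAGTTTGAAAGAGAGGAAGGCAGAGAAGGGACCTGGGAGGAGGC
Cd36: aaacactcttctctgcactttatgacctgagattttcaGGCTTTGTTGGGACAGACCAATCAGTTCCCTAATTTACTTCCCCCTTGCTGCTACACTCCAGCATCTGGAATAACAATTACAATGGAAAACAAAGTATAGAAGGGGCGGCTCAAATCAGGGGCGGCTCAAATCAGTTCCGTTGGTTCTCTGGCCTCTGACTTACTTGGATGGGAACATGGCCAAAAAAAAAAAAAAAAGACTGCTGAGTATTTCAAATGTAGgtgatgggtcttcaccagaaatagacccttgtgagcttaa
Prlr: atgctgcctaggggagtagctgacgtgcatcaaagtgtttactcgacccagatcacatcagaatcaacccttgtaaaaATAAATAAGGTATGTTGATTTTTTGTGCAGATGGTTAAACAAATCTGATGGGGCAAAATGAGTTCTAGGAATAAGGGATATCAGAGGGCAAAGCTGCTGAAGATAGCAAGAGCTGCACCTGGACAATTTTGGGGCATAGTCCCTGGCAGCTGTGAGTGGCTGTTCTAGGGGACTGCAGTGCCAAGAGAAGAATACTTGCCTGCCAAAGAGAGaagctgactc
Zbtb20: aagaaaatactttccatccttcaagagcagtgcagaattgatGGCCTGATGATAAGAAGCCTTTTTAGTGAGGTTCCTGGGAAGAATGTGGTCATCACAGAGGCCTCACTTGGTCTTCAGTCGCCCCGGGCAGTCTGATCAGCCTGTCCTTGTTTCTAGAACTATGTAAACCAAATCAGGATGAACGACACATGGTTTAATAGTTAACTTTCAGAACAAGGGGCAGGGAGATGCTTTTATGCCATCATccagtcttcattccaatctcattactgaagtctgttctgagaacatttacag
Rbm47: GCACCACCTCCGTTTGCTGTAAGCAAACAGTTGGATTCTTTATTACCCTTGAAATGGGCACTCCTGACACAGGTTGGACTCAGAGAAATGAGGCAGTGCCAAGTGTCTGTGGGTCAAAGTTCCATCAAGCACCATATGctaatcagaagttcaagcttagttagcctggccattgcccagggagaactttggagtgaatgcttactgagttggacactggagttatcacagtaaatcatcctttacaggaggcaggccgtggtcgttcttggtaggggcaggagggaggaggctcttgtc

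The other 3 were rich in CpG. Pfkfb3, an enzyme that makes an activator of glycolysis, has its window at chr2:11502041-11502340 on the - strand, with 20 CpG. For Gpam, which starts triglyceride synthesis, it is chr19:55099428-55099727 on the - strand, with 30 CpG. For Nav2, a cytoskeletal protein, it is chr7:49245939-49246238 on the + strand, with 42 CpG.
Pfkfb3: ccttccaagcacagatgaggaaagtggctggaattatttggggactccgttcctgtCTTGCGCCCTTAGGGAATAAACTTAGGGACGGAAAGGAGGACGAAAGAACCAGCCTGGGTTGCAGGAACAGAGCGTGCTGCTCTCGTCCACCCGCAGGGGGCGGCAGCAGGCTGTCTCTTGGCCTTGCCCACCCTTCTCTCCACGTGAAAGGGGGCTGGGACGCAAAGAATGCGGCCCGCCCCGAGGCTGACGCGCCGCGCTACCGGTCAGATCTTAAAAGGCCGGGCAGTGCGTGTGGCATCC
Gpam: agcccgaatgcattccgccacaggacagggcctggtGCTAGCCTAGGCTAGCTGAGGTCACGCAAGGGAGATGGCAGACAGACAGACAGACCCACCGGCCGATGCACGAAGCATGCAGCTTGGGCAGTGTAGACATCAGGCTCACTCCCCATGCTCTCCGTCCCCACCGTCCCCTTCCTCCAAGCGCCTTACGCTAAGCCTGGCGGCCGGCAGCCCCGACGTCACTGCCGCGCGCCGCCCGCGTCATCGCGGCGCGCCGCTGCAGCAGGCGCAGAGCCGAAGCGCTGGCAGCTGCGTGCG
Nav2: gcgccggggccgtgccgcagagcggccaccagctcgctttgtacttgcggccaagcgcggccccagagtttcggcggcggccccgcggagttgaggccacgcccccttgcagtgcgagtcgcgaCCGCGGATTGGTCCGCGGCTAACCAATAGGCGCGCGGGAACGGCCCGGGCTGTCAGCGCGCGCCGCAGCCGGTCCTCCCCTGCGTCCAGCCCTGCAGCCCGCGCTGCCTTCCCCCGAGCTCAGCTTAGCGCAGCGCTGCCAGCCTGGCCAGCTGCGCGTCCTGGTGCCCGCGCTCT

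The intervals on these starts differed in width and in where they lay. The interval of Gpam spanned 365 bp with its centre 32 bp before the start, and that of Pfkfb3 spanned 278 bp with its centre 55 bp before it. The interval of Hnf4a spanned 206 bp, centred 17 bp before the start, and that of Nav2 spanned 210 bp, centred 22 bp before it. Those of Cd36 (222 bp), Prlr (212 bp) and Zbtb20 (206 bp) were centred 101, 67 and 106 bp before their starts. The interval of Rbm47, 207 bp wide, lay farthest upstream of the 8, at 216 bp. The intervals of Rbm47 and Zbtb20 ended short of the start base, and the other 6 covered it.

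Across all genes, 1490 start windows of protein-coding genes lay deep inside a gene, and 422 of them (28.3%) overlapped a wider interval, while 96 (6.44%) overlapped an interval of 201 bp alone. These 422 windows belonged to 361 genes. Over all 21263 start windows of protein-coding genes the share with a wider interval of any place was 40.8%, and over the 17382 windows within 1 kb of a gene end it was 43.0%. Start windows of long non-coding RNA genes in the same deep interiors overlapped a wider interval in 127 of 1760 cases (7.22%) and a 201-bp interval alone in 52 (2.95%).

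Seen from the intervals, few lay on a start: 386 of the 19673 wider intervals (1.96%) overlapped a deep start window, against 97 of the 16872 deep intervals of 201 bp (0.575%). The windows made up 0.0584% of the deep interior. Per 100 kb of windows there were 74.4 centres of wider intervals and 17.4 centres of 201-bp intervals, 27.9 and 7.61 times their densities over the whole deep interior.

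The position of the centres relative to deep starts was narrow. In steps of 100 bp, 185 wider intervals and 35 intervals of 201 bp were centred at the start, 117 and 34 one step upstream, and 52 and 19 one step downstream. Beyond 1 kb from the start the median per step was 7 wider intervals and 4 intervals of 201 bp.

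**Figure D1:**
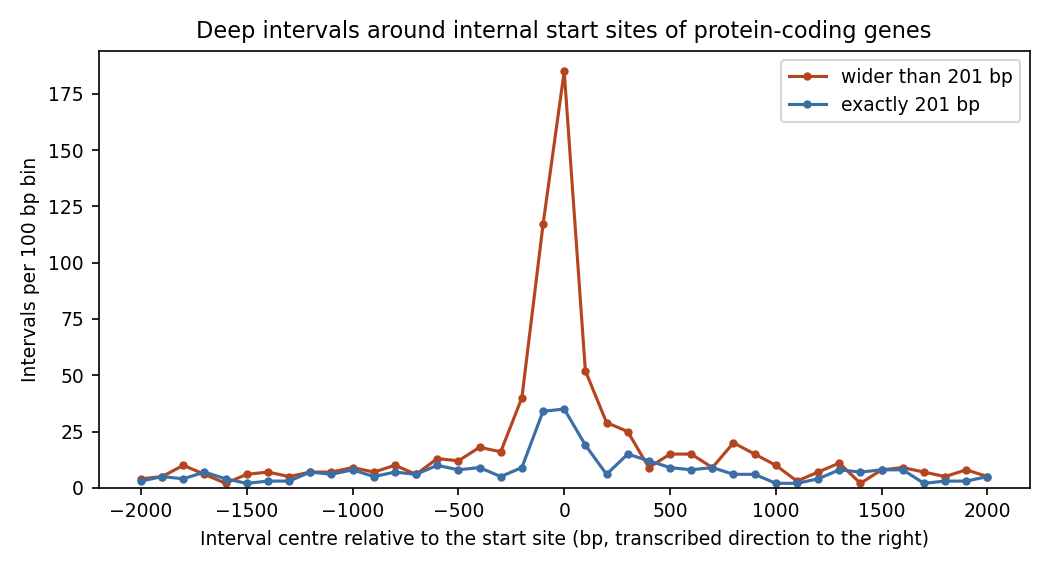
Number of deep interval centres per 100-bp step (vertical axis) by distance from deep start sites of protein-coding genes in bp (horizontal axis), wider and 201-bp intervals drawn separately; an interval near several start sites is counted for each. The wider intervals reach 185 at the start itself, the 201-bp intervals 35, and both are low beyond 1 kb.

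The sequence of the deep start windows, which had no part in choosing the intervals, differed between those with and without a wider interval. The median number of CpG was 16 in windows with a wider interval, 8 in windows with a 201-bp interval alone and 5 in windows with neither. Median GC content was 59.3%, 54.3% and 49.7% in the same order. Windows with at least 15 CpG made up 51.9% of those with a wider interval and 12.1% of those with no interval. The share of windows with a wider interval was 7.71% at 0 to 3 CpG, 16.5% at 4 to 7, 38.0% at 8 to 14, 55.5% at 15 to 24 and 64.7% at 25 or more. The share with a 201-bp interval alone stayed between 4.79% and 9.80% over these classes. Windows with a wider interval cannot count in that share. They were 31 of 402 windows at 0 to 3 CpG and 123 of 190 at 25 or more. The share therefore does not show whether 201-bp intervals vary with CpG. Windows at gene ends with a wider interval were richer still, with a median of 22 CpG, so the deep starts with a wider interval lay between them and the deep starts with none.

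Short motifs of liver and general transcription factors were searched in these windows on both strands. AAGGTCA, part of the site of the estrogen-related receptors, stood in 5.69% of deep windows with a wider interval, 5.04% of those with none and 4.08% of all protein-coding start windows. GTTAAT, part of the HNF1 site, stood in 5.92%, 9.36% and 6.25% of the same sets. CACGTG, an E-box bound by clock and other basic helix-loop-helix factors, stood in 5.21%, 4.42% and 7.84%. TGTTTAC, the forkhead motif, stood in 3.08%, 3.81% and 3.01%, and CAAAGTC, part of the HNF4 site, in 2.61%, 5.04% and 4.14%. TGAGTCA, the AP-1 site, stood in 4.03%, 6.48% and 4.66%, and TTGCGCA, of the C/EBP site, in 1.18%, 0.617% and 2.56%. None of the 7 motifs stood in more than 5.92% of the deep windows with a wider interval. Of the printed windows, that of Hnf4a holds GTTAAT, that of Prlr TGTTTAC and that of Pfkfb3 CACGTG. The motif of Prlr lies outside the bases that its interval covers, and those of Hnf4a and Pfkfb3 lie inside. Intervals away from start windows were not searched, since no genome of the build was used here.

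Among the 600 genes that are listed or named here, 84 had a deep start, and 35 (41.7%) had a wider interval on one, on 40 of their 124 deep windows (32.3%). Over all genes with a deep start these shares were 33.4% (361 of 1082 genes) and 28.3%. The 600 include genes named for the density or number of their wider intervals, so their shares are not independent of that choice. Of the hepatocyte transcription factors and cofactors with a deep start, 8 of 16 had a wider interval on one. They include Srebf1, the sterol regulatory factor, with an interval of 226 bp, Nr1h4, the bile acid receptor FXR, with 220 bp, Stat5b, the signal carrier of growth hormone, with 229 bp, and Rxrg, a retinoid X receptor, with 216 bp. The 8 without one were Rxra, Pparg, Ppargc1a, Mlxipl, Thrb, Tcf7l2, Ncor1 and Nfix. For lipid and bile acid genes it was 3 of 8, Cd36, Gpam and Lpin2, a phosphatidate phosphatase (210 bp), and not Acaca, Acacb, Acsl1, Lipc or Lpin1. For glucose and insulin signalling it was 3 of 4, Pfkfb3, Akt2, which carries insulin signals (212 bp), and Pcx, pyruvate carboxylase (211 bp), and not Pik3r1. Esrrg, an orphan nuclear receptor, had a wider interval on 2 of its 3 deep windows, of 220 and 295 bp, and Esrrb had one of 291 bp on a deep start. Of the cyclic nucleotide phosphodiesterases with a deep start, 4 of 9 had one, on 5 of 23 deep windows (21.7%). Pde2a had one on 2 of its 4 deep windows, and Pde4b on none of its 4. Of the core clock genes with a deep start, 1 of 3 had one, Csnk1e, a clock kinase, and not Arntl or Rorb. The 4 deep windows of Csnk1e shared a single interval of 217 bp. Of the neuronal genes with a deep start, 5 of 19 had a wider interval on one: Robo1 (248 bp), Robo2 (212 bp), Nrxn3 (256 bp), Cdh18 (224 bp) and Cntnap2 (211 bp). None of the 5 skeletal muscle genes with a deep start had one. For hepatocyte enzymes and secreted proteins it was 2 of 2. For stellate, macrophage and Kupffer cell, lymphocyte and endothelial markers it was 1 of 1, 1 of 2, 1 of 4 and 0 of 2.

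Among all deep intervals, 53.8% were wider than 201 bp, 19673 of 36545. This was nearly the share in the whole list, 53.8%, and outside the deep interiors, 53.7%. It was below the 73.8% found within 1 kb of a protein-coding gene end (11636 of 15771) and above the 43.8% found between genes and over 10 kb from any end (19574 of 44739).

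The wider intervals were narrow in absolute terms, from 202 to 401 bp, with quartiles at 208, 219 and 238 bp. At least 250 bp was reached by 3367 of them (17.1%) and 300 bp by 645 (3.28%), the second against 4.68% of the wider intervals at gene ends. Together they covered 4489 kb. At the width limit, 745 intervals of 202 bp stood just inside and 16872 deep intervals of 201 bp just outside. At the distance limit, 640 wider intervals lay 10 to 11 kb and 652 lay 9 to 10 kb from the nearest end. The widest were those of Specc1l at chr10:75221976-75222376, Pxn at chr5:115506476-115506876 and Fat1 at chr8:44949061-44949461, each of 401 bp, followed by Lpp at chr16:24469214-24469612 and Spon1 at chr7:114020674-114021072, each of 399 bp. Pxn encodes paxillin, a protein of focal adhesions, and Fat1 a giant cadherin.

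The median distance to a protein-coding gene end was 37.9 kb, with quartiles at 19.8 and 80.7 kb. The farthest lay in Ptprd, a receptor phosphatase, at chr4:77083245-77083447, 1128 kb from any end. The next was in Cntnap2, a neuronal adhesion gene, at chr6:46172431-46172678, at 1112 kb. Of the 5 farthest, Ptprd held 3 and Cntnap2 held 2.

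Density was lower farther from gene ends, and the difference was larger for wider than for 201-bp intervals. At 10 to 20 kb from an end there were 3.27 wider and 2.35 intervals of 201 bp per 100 kb, and 58.3% were wider. At 20 to 50 kb the densities were 3.05 and 2.39, at 50 to 100 kb 2.70 and 2.33, and at 100 to 200 kb 2.10 and 2.12. Beyond 200 kb they were 1.48 and 2.13, and 41.0% were wider. Between genes there were 2.38 wider and 1.89 intervals of 201 bp per 100 kb at 10 to 20 kb. Beyond 200 kb the wider density there was lower, at 0.807, and that of 201-bp intervals higher, at 2.05, and 28.3% were wider.

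**Figure D2:**
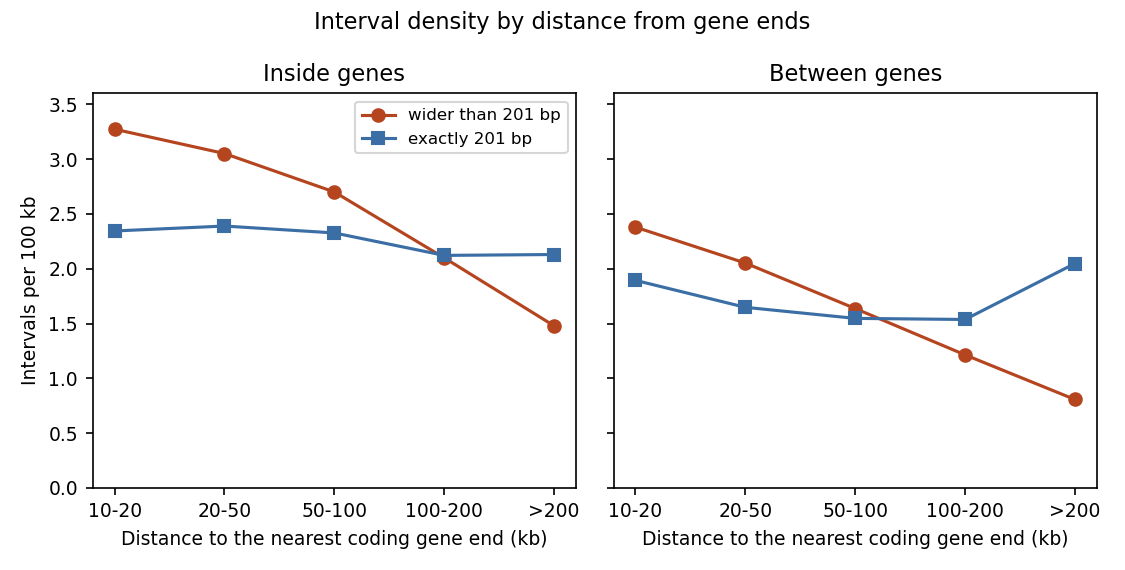
Intervals per 100 kb (vertical axis) by distance to the nearest protein-coding gene end in kb (horizontal axis), wider and 201-bp intervals inside and between genes. Inside genes wider intervals go from 3.27 at 10 to 20 kb to 1.48 beyond 200 kb, while 201-bp intervals stay between 2.12 and 2.39.

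At least 1 wider deep interval was found in 5055 of the 9886 genes with a deep interior (51.1%). Of these host genes, 1764 held 1, 1996 held 2 to 4, and 1295 held at least 5. The 462 genes with at least 10 held 36.6% of all of them, counting an interval for each gene that contains it. Pooled over the deep interior there were 2.67 wider intervals per 100 kb, with an exact 95% Poisson interval of 2.64 to 2.71 that covers counting error alone, and 2.29 intervals of 201 bp. The median over all 9886 genes was 0.573 per 100 kb and over host genes 4.37.

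Longer genes were more often hosts. With a deep interior of up to 20 kb, 21.6% of genes were hosts, at 50 to 100 kb 75.7%, and above 500 kb 98.1%. The density was 3.32 per 100 kb up to 20 kb, 3.36 at 50 to 100 kb and 1.65 above 500 kb.

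Ranking needed at least 5 wider intervals and a deep interior of at least 20 kb, which left 1295 genes with a median of 5.28 per 100 kb. Lrig3 (NCBI gene 320398, chr10:125966219-126015359), a transmembrane protein with leucine-rich repeats, ranked first, with 6 wider intervals and none of 201 bp in 29.1 kb. That is 20.6 per 100 kb, with a Poisson interval of 7.56 to 44.8. Its intervals were 202 to 257 bp wide, and the first and the last lay at 125979160 and 126003373. Rbm47 (NCBI gene 245945, chr5:66016549-66151954), a partner in the editing of apolipoprotein B mRNA, held 18 wider intervals against 5 of 201 bp in 115 kb, or 15.6 per 100 kb (9.24 to 24.7). Its wider intervals ran from 202 to 256 bp. Kat2b (chr17:53566774-53672721), a histone acetyltransferase, held 13 against 4, or 15.1 per 100 kb (8.05 to 25.9). Met (chr6:17463349-17573980), the receptor for hepatocyte growth factor, held 13 against 3, or 14.3 per 100 kb (7.64 to 24.5), with widths of 206 to 284 bp.

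The other genes of the first 25 had 5 to 9 wider intervals each. Dclk3, Lamp2, Wasl, Zcchc24 and Rassf5 had 16.4, 16.3, 16.0, 16.0 and 16.0 wider intervals per 100 kb. Lamp2 is a lysosomal membrane protein and Wasl an activator of actin assembly. Dcps, Rras2, Fam219a, Mgrn1, Art3 and Tspan14 had between 14.8 and 15.8. Zdhhc17, Cmtm8, Fgf1, D130043K22Rik and Tnpo1 had 14.5, 14.4, 13.8, 13.8 and 13.8. All 7 intervals of Fgf1 also lie in Arhgap26, whose span overlaps it. Irak2, Pxn, Ndst1, Ccdc12 and Desi2 had 13.7, 13.6, 13.5, 13.4 and 13.3. The gene ranked next stood at 13.2. The highest lower bound of their Poisson intervals, 9.24, was below the lowest value, 13.3, so the order within the 25 was not resolved. Pooled, the 25 held 175 wider and 51 of 201 bp, 77.4% wider, and 8 of them held no 201-bp interval. They were chosen for their density of wider intervals, so the 77.4% is not a separate result. Of the 1295 ranked genes, 54 held no 201-bp interval. The 25 pooled held 4.36 intervals of 201 bp per 100 kb, above the 2.29 of the whole deep interior. With at least 3 wider intervals and 10 kb as the minimum, 1 of the 25 stayed and Wdr91 led at 28.8 per 100 kb. With at least 10 and 50 kb, 3 stayed, and Rbm47, Kat2b and Met led.

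**Figure D3:**
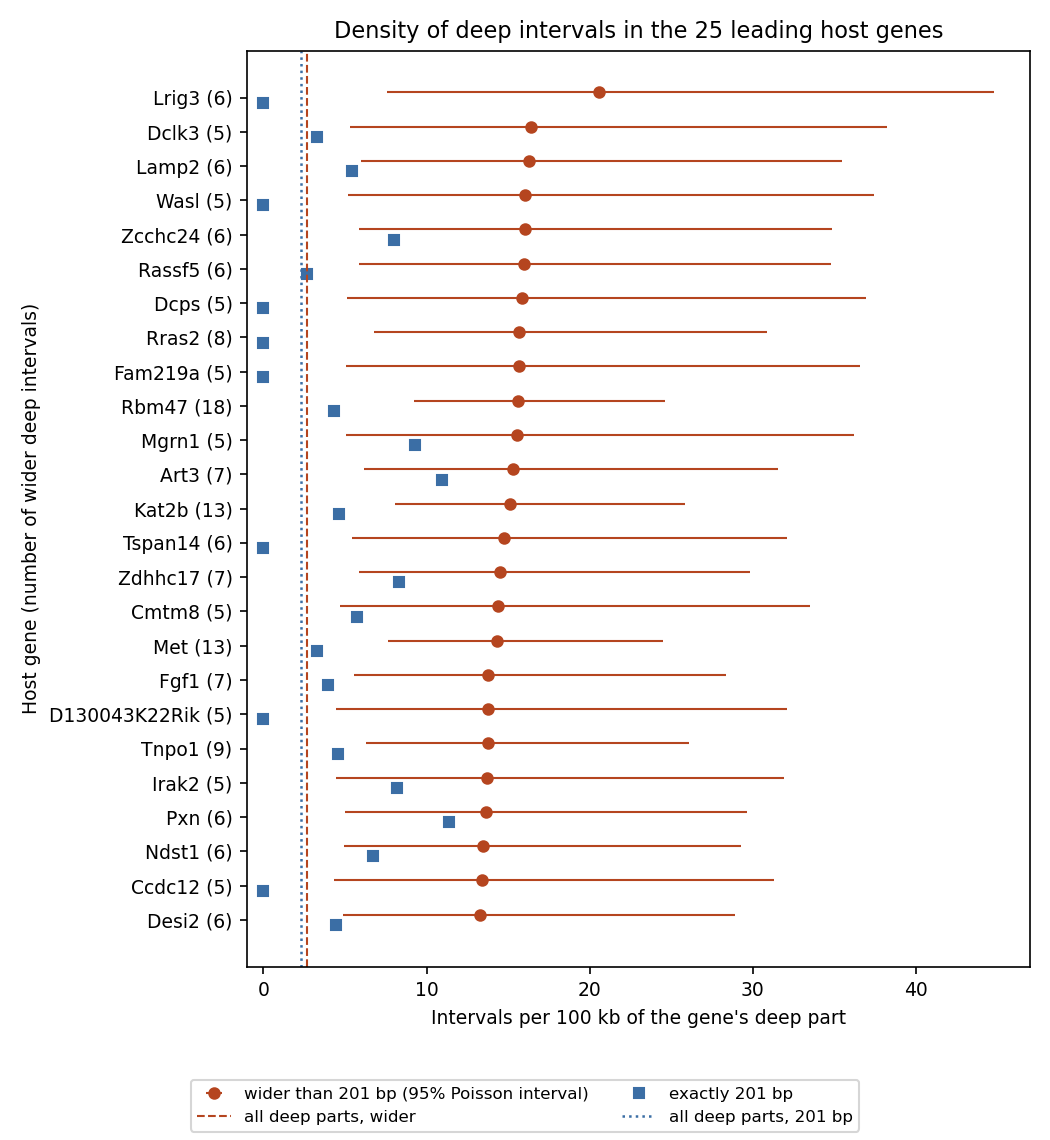
Intervals per 100 kb of deep interior (horizontal axis) for the 25 leading host genes (vertical axis), wider with exact 95% Poisson intervals and 201 bp beside them; the broken lines are the pooled values of all genes. Lrig3 leads at 20.6, and the error bars of all 25 genes overlap.

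**Figure D4:**
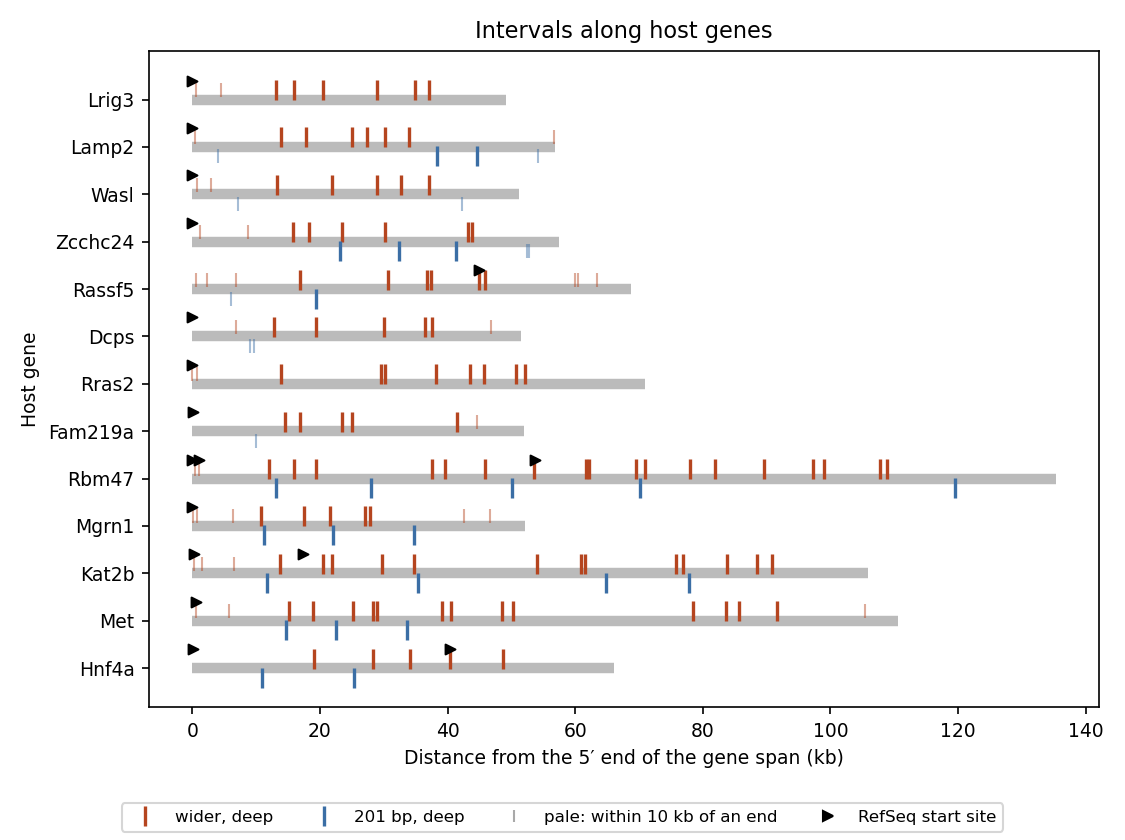
Wider and 201-bp intervals along 13 host genes by distance from the 5′ end of the gene span in kb; pale marks lie within 10 kb of an end and arrowheads are RefSeq start sites. Rbm47 carries 18 wider deep intervals along its 115 kb, and a wider interval overlaps the 300-bp window of the internal start in Rbm47, Rassf5 and Hnf4a.

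By number the leading genes were others. Pde4d, a cyclic AMP phosphodiesterase, held the most, 59 wider against 40 of 201 bp (4.60 per 100 kb). Zbtb20 followed with 48 against 31 (6.57), Foxp1, a forkhead factor, with 45 against 19 (7.79), and Arhgap26 with 44 against 18 (6.73). Naaladl2 held 43 against 45 (3.24) and Nav2 39 against 22 (6.18). Plcb1, a phospholipase C, held 39 against 21 (5.83), Nfia, a nuclear factor I protein, 37 against 21 (7.10), Prkce, a protein kinase C, 36 against 24 (7.66), and Tenm3 36 against 31 (2.82). Pooled, 61.0% of the deep intervals of these 10 genes were wider. That share is not independent of choosing them by their number of wider intervals. The lowest of the ranked genes were Il1rapl1, at 5 wider and 3 of 201 bp (0.369), and Sgcz, at 5 against 48 (0.445), of which 9.43% were wider.

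Lists of genes by role, drawn up with earlier results of these data known, were set beside the pooled 2.67 and the share of host genes, 51.1%. The share of hosts rose with length, so 51.1% is not a value for genes of like length. Among all genes it was 54.2% at 20 to 50 kb of interior, 75.7% at 50 to 100 kb and 85.7% at 100 to 200 kb. The median interior was 28.2 kb for lipid and bile acid genes and 54.2 kb for glucose and insulin signalling. For hepatocyte transcription factors it was 64.3 kb, and for cyclic nucleotide phosphodiesterases 106.5 kb. In density of wider intervals, hepatocyte transcription factors stood highest, at 5.49 per 100 kb (4.92 to 6.10) against 3.63 of 201 bp. Their median gene stood at 6.02, and 42 of the 50 with a deep interior held a wider interval. Rxrg held 3 wider intervals and none of 201 bp (14.1 per 100 kb), Zhx3 held 10 against 3 (12.9) and Nr3c1, the glucocorticoid receptor, 11 against 1 (12.4). Hnf4a held 5 against 2, or 10.8 per 100 kb. Cux2 and Stat3 held no wider interval, with 5 and 1 of 201 bp. The pooled density was 2.06 times that of all genes. At widths of at least 250 bp it was 2.02 times, below the 2.37 times of lipid and bile acid genes.

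Lipid and bile acid genes were close, with 30 of 44 holding a wider interval, 5.39 per 100 kb (4.47 to 6.45) against 3.96 of 201 bp and a median gene at 4.61. Elovl2, which elongates polyunsaturated fatty acids, held 3 against 0 (16.7), Abcb4, which exports phospholipid into bile, 5 against 2 and Cd36 9 against 5 (10.3). Acss2 and Apob held neither kind. For genes of glucose and insulin signalling, 24 of 33 held a wider interval, and wider and 201-bp densities were alike, at 4.07 (3.31 to 4.94) and 4.11. Pfkfb3 held 8 against 3 (12.8) and Irs1, the insulin receptor substrate, 4 against 0 (10.4), while Rptor and Rictor held 0 wider and 1 and 2 of 201 bp.

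Core clock genes held a wider interval in 9 of 17, at 3.82 per 100 kb (2.91 to 4.92) against 2.13 of 201 bp. Their wider share, 64.1%, was the highest of the 14 lists, just above the 63.5% of cholangiocyte markers. Per2, a repressor of the clock, held 4 against 0 (17.1), from 204 to 214 bp wide, Cry2, its partner, 2 against 2 (19.2) and Hlf 3 against 2 (8.73). Rorb and Btrc, both on chromosome 19, held neither kind. Cyclic nucleotide phosphodiesterases, a list that includes enzymes specific for cyclic GMP such as Pde9a, had 16 of 20 with a wider interval, at 3.52 (3.01 to 4.09) against 2.82. Pde8a held 7 against 5 (6.91), Pde7a 4 against 1 (5.86) and Pde1a 20 against 21 (5.85), while Pde8b and Pde9a held 0 against 1 each.

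Genes for hepatocyte enzymes and secreted proteins, a list that also includes receptors such as Met and Prlr, were close to all genes. Hosts were 17 of 32 (53.1%), and the list held 2.92 per 100 kb (2.26 to 3.72) against 2.88 of 201 bp. F9, a clotting factor, held 2 against 0 (17.5), Aldh1l1 2 against 0 (7.04) and Met the 13 described above. Those 13 are part of the 66 wider intervals of the list. Cps1, of the urea cycle, and Hc held 0 wider against 4 and 1.

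Markers of the other cell types of liver ranged from 1.78 to 3.40 wider intervals per 100 kb. Endothelial markers had 18 of 23 hosts and 3.40 per 100 kb (2.55 to 4.45) against 2.76 of 201 bp, led by Eng (2 against 0), Gata4 (4 against 3) and Pecam1 (3 against 2), with Adgrl4 and Kdr at 0 against 5 and 2. Stellate cell markers had 10 of 17 hosts and 2.57 (1.69 to 3.73) against 2.76, led by Nt5e (2 against 0), Vcl (5 against 2) and Col4a1 (5 against 7), with Pdgfra and Dcn at 0 against 0 and 2. Cholangiocyte markers had 9 of 13 hosts and 2.64 (1.82 to 3.71) against 1.52, led by Ehf (2 against 1), Sctr (3 against 0) and Gldn (2 against 0), with Cftr and Ezh2 at 0 against 5 and 1. Lymphocyte markers had 10 of 20 hosts and 1.97 (1.51 to 2.53) against 1.91, of which Bach2 alone held 25 wider against 15, Prkcq 6 against 0 and Cd247 3 against 2, with Lef1 and Bcl11b at 0 against 1 and 0. Macrophage and Kupffer cell markers had 5 of 15 hosts (33.3%) and 1.78 (0.855 to 3.28) against 1.25. Mertk held 3 against 4 and Runx1 4 against 2, and Adgre1, a surface receptor that marks macrophages, and Itgam held neither kind. Positions carry no level, so how many cells of each type gave the list was not tested.

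Skeletal muscle and neuronal genes stood lowest of the 14 lists. Neuronal synaptic and adhesion genes were hosts in 46 of 50 cases, with a median interior of 1001 kb, but held 1.12 wider intervals per 100 kb (1.03 to 1.22) against 2.28 of 201 bp, 33.0% wider and 0.421 times the density of all genes. Gad2 held 3 against 0, Syt1 14 against 19 and Robo1 29 against 43, while Rbfox3 and Snap25 held 0 against 3 and 0. Skeletal muscle genes had 10 of 21 hosts and 1.07 (0.810 to 1.39) against 1.36, led by Asb5 (2 against 1), Myom1 (6 against 4) and Neb (5 against 4), with Myo18b at 0 against 2. Housekeeping genes had 13 of 30 hosts and 2.46 (1.66 to 3.52) against 2.46, led by Ywhaz (2 against 0), Hprt (2 against 1) and Xpo1 (2 against 0), with Rock1 and Med13 at 0 against 2 and 0. All genes with an interior above 500 kb held 1.65 wider intervals per 100 kb, 43.9% wider. That class includes neuronal genes of this list, so its values are not independent of them. Skeletal muscle genes had a median interior of 67.0 kb, and all genes of 50 to 100 kb held 3.36 per 100 kb. Other lists hold shorter genes, with a median interior of 23.4 kb for core clock genes and 25.3 kb for housekeeping genes. For hepatocyte enzymes and secreted proteins it was 37.9 kb. All genes with an interior of 20 to 50 kb held 3.26 wider intervals per 100 kb, above the pooled 2.67. The part of length in the result of any list was not tested.

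**Figure D5:**
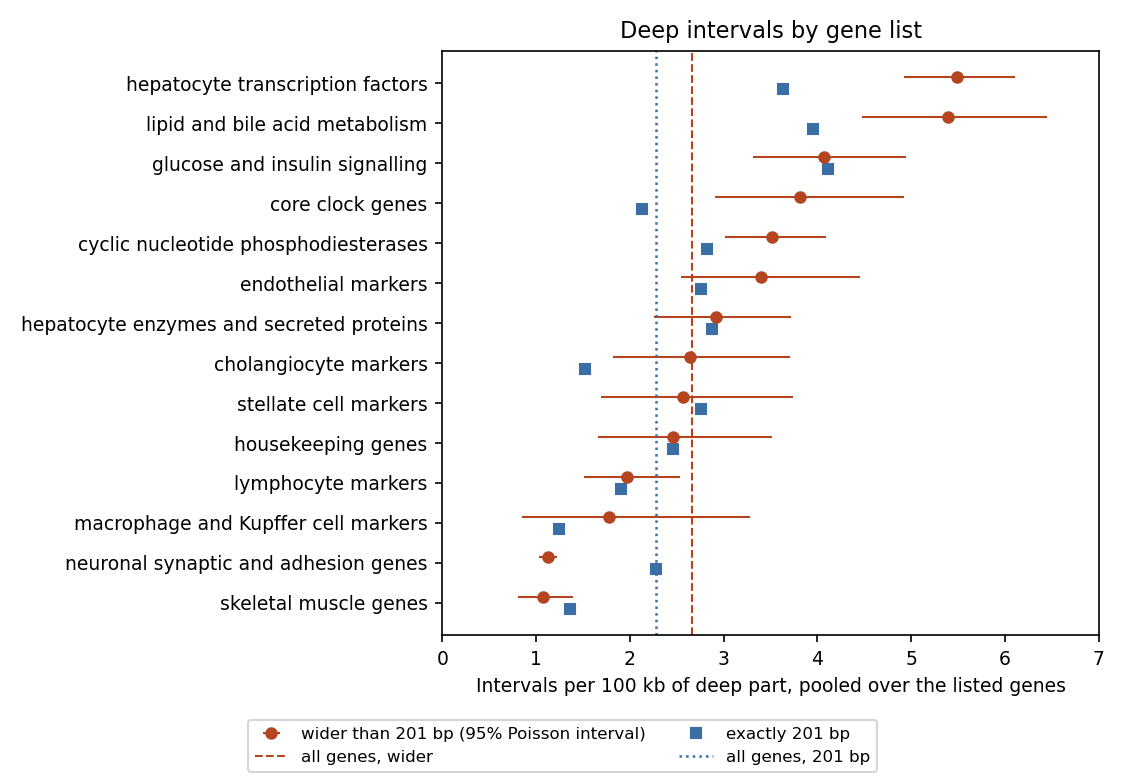
Intervals per 100 kb of deep interior pooled over each gene list (horizontal axis), wider with exact 95% Poisson intervals and 201 bp beside them; the broken lines are the values of all genes. Hepatocyte transcription factors stand at 5.49 and neuronal genes at 1.12 wider intervals per 100 kb.

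Wider deep intervals had few close neighbours. The median distance to the nearest interval of any width was 5.40 kb, against 5.65 kb for 201-bp deep intervals and 4.67 kb for wider intervals at gene ends. Within 500 bp another interval lay beside 1.46% of wider deep intervals, against 6.13% of the 201-bp deep ones and 2.92% at gene ends. Wider deep intervals alone were then joined over gaps of up to 1 kb, leaving out those of 201 bp and those elsewhere. In this joining 18445 were joined to no other, 596 runs held 2 and 12 runs held 3, with none longer. The runs of 3 include Mogat1, Ripor2, Celsr1 and Abcd2. With intervals of any width counted, 2160 of the 19673 wider deep intervals had another within 1 kb. Some of the 18445 therefore had a close neighbour that the joining left out. The rule that combined the libraries is not given. Whether it joined close intervals into wider ones, which would leave fewer close neighbours, was not tested.

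Densities of wider deep intervals on the 5′ and 3′ sides of the gene were nearly alike. Along the gene they were not even, since density was lower farther from an end, as given above. In the 7832 genes whose strand was known, there were 2.71 wider intervals per 100 kb in the deep interior on the 5′ side of the gene's midpoint and 2.62 on the 3′ side, against 2.40 and 2.13 for 201-bp intervals. The start of the gene itself held a wider interval in 63.5% of genes with at least 5 wider deep intervals, 61.0% with 2 to 4, 61.2% with 1 and 51.3% with none. Among genes with a deep interior of 50 to 100 kb these shares were 72.1%, 63.1%, 57.6% and 42.5% in the same order. Of the 18 of the first 25 genes with such a start in the table, 17 held one.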

How the data were processed

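The authors deposited a single list of interval positions (chromosome, start and end; other values, such as counts or signal, were not in it) that combines 6 ATAC-seq libraries. The submitters' processing notes name fastp, Bowtie2, HOMER and mm10, without versions or order; the peak threshold, duplicate filters and the combining rule, not given in the sources used here, set which weak sites entered the list. Starts were converted to 1-based positions. Genes came from RefSeq GRCm38.p6 (49943 genes, 21887 protein-coding) as spans without exons, so introns and exons were not separated. Start windows came from the RefSeq promoter table. Densities are intervals per 100 kb of deep interior with exact 95% Poisson intervals, which cover counting error alone; the depth per library is unknown. No test over samples was possible.

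Genes named were the 25 of highest density (at least 5 wider intervals and 20 kb), the 10 with most, from each of 14 lists the 3 densest with at least 2 and the 2 longest with none, and the 5 widest and 5 innermost intervals; some genes this rule names are not reported here. Genes with an interval on an internal start, those with the lowest density, runs and printed windows were named after their values were seen. The intervals and lists were chosen with earlier results of these data known. Of 572 distinct listed genes 3 were not found. The counting code was tested on simulated data. Python 3.11.15, numpy 2.4.6, pandas 2.3.3, scipy 1.17.1 and matplotlib 3.10.9 were used.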

Additional observations from a re-analysis of the deposited data

How the results depend on the processing

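Counts and densities were recomputed with margins of 5 and 20 kb, a width of at least 250 bp, ends of all RefSeq genes, whole intervals beyond the margin, autosomes alone, and neighbours within 500 bp counted as 1. The width limit changed most. At 250 bp or more, 3367 intervals remained, 9.21% of deep intervals, in 2075 host genes with a median of 1.41 per 100 kb. The density relative to all genes was then 1.24 for glucose and insulin signalling (1.53 with all widths), 1.83 for endothelial markers (1.28) and 0.479 for neuronal genes (0.421). Other settings gave 14658 to 23488 intervals and 52.5 to 54.6% wider. Hepatocyte transcription factors stayed at 1.98 to 2.19 and lipid and bile acid genes at 1.95 to 2.37 times all genes under every setting. With ends of all RefSeq genes, core clock genes went from 3.82 to 2.84 per 100 kb, and from 1.43 to 1.10 times all genes. Some lists near or below all genes crossed over. At 250 bp or more, macrophage and Kupffer cell markers (0.669) stood at 1.17 and housekeeping genes (0.924) at 1.08. Few intervals are behind these values, 0.535 per 100 kb over 0.561 Mb and 0.493 over 1.22 Mb. Their counting error was not computed. Cholangiocyte markers (0.991) stood at 1.15 with 5 kb and 1.03 with 20 kb. The ranking kept 1 of 25 genes with at least 3 intervals and 10 kb, and 3 with at least 10 and 50 kb, where the other 22 held too few intervals to enter. No paired analysis was possible because the list marks no library, and for the same reason no replicate could be left out. Depth and threshold are unknown, so a gene without an interval is only one with none in this list.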

Other observations

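Chromosome 19 held 1.09 wider deep intervals per 100 kb (0.946 to 1.25), against 2.67 over all chromosomes, and 1.36 of 201 bp, with 44.4% wider. Chromosome X held 1.61 (1.48 to 1.75) and 61.6% wider, and chromosome 18 held the highest density, 3.33 (3.10 to 3.56). Among genes with no 201-bp interval, Arhgap18 held 10 wider deep intervals, Erg, an endothelial transcription factor, and Il16 held 9 each, and Cnksr3 and Dapk2 held 8 each. Of 253 microRNA hairpins in the deep interiors, 12 had a wider interval within 500 bp and 6 one of 201 bp. These stretches held 3.74 centres of wider intervals per 100 kb, against 2.67 over the whole deep interior. Few intervals are behind the 3.74 and its counting error was not computed, so no difference is read from it.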
